A study of Mus musculus with 26 samples.

Results

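The 37 genes described here encode the enzymes and carriers of fatty acid oxidation, ketone body interconversion and the peroxisomal pathway, together with the nuclear receptor PPAR alpha, its coactivator Ppargc1a and known targets of the receptor. They were chosen by the pathway they belong to, not by a cutoff on their values, from the 55487 genes of the count table. Expression was measured in whole pieces of proximal small intestine from 26 mice, 1 library per mouse, by sequencing the 3′ ends of mRNA. The knockout mice carried loxP-flanked alleles of the targeted gene and the Villin-creERT2 transgene, which drives a tamoxifen-dependent Cre in intestinal epithelial cells only. The controls were littermates with the same loxP-flanked alleles and without that transgene, and all mice were C57BL/6N. Knockout and control mice alike received 5 daily injections of tamoxifen at 8 to 12 weeks of age, and tissue was taken 3 or 7 days after the last injection. There were 7 control and 7 knockout mice at day 3, and 6 control and 6 knockout mice at day 7. Muscle and lamina propria, in which the transgene is not active, are part of every sample.

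Fatty acids are first activated to acyl-CoA. Long chains then enter mitochondria through the carnitine shuttle, and each turn of the mitochondrial spiral consists of a dehydrogenation, a hydration, a second dehydrogenation and a thiolytic cleavage that releases acetyl-CoA. Electrons from the first step pass through the electron transfer flavoprotein to the respiratory chain. Peroxisomes run a parallel spiral for very long, branched and dicarboxylic chains. PPAR alpha binds fatty acids and, as a heterodimer with the retinoid X receptor, activates many of these genes. Enterocytes of the proximal intestine take up dietary fat, oxidize part of it and export the rest in chylomicrons.

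Library totals ranged from 3720168 to 6338016 counts. The 37 genes together took 0.211 to 0.397% of the counts in the day 3 controls, 0.177 to 0.410% in the day 3 knockouts, 0.418 to 0.525% in the day 7 controls and 0.416 to 0.507% in the day 7 knockouts. Some libraries stood apart. Summed stomach and Brunner gland markers reached 10000 counts per 1000000 of the library total (CPM) or more in knockout mouse 1 and control mice 5 and 7 of day 3 and in control mouse 2 of day 7, and summed pancreatic acinar markers did so in knockout mouse 2 and control mice 2 and 3 of day 3 and in knockout mouse 4 of day 7. Where a call is lost or gained without these libraries, this is said beside the result. Levels below are CPM, which a 3′ assay does not divide by gene length, so they are compared between mice and not between genes. The edgeR fold changes were fitted to counts scaled between libraries by the TMM method. Their size and sign can therefore differ from those read off the CPM.

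PPAR alpha with its partner recognizes a direct repeat of a hexamer with a single base between the copies. Promoters (from 250 bases before the start site to 50 after it, RefSeq sequence, build GRCm38.p6) were at hand for 32 of the 37 genes, as 34 windows. The repeat (AGGNCA, any base, AGGNCA), read on both strands, stood in 0 of these 34 windows and in 125 of all 32851 promoters (0.381%). Its single hexamer AGGTCA stood in 5 of the 34 and in 5340 of the 32851 (16.3%), so that its frequency among these genes was near that of all promoters. The hexamer was searched after the repeat had given no match. Of these 5 genes Acadm, Scp2 and Echs1 differed between knockout and control at day 7, the first pair lower and Echs1 higher, and their promoters are shown with the hexamer in capitals (TGACCT where it lies on the other strand). The promoter window of Acadm lies at chr3:153944594-153944893 (minus strand), that of Scp2 at chr4:108118498-108118797 (minus strand) and that of Echs1 at chr7:140116372-140116671 (minus strand).
Acadm: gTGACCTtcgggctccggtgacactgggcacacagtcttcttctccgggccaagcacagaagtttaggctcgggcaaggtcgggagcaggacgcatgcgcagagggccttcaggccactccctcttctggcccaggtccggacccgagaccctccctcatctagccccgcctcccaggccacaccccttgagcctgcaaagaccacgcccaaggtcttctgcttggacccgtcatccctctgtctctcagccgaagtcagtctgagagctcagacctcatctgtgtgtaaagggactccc
Scp2: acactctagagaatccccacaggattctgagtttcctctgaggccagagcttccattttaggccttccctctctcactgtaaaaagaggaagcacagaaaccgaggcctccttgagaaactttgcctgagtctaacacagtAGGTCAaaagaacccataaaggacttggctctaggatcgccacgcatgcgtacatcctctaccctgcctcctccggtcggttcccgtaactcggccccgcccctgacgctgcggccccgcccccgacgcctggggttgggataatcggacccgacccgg
Echs1: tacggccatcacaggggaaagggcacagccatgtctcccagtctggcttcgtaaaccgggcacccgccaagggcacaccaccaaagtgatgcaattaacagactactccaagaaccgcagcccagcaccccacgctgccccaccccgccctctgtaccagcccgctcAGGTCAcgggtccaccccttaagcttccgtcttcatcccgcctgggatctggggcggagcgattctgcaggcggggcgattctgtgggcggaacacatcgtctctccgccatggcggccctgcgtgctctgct
The hexamer began 249 bases before the start site in Acadm, 109 in Scp2 and 83 in Echs1. The other holders were Acadvl (87 bases before the start) and Cpt1a (94 bases before it), whose expression did not pass the test at day 7. The search covers these letters in this window only, and says nothing of elements farther away.

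At day 3, 1 of the 37 genes was higher in the knockout (2.70% of them, against 1.11% of all 20760 genes tested) and 0 were lower (0.323% of all genes). In the same edgeR fit 7 were higher and 2 lower at an unadjusted p under 0.05, and DESeq2 called 2 higher and 0 lower. The higher gene was Acot2, the mitochondrial acyl-CoA thioesterase that releases free long-chain fatty acids and CoA in the matrix. Its level was 26.3 to 56.5 CPM in the day 3 controls (median 48.1) and 41.4 to 237 CPM in the knockouts (median 120.0). The ranges overlapped through the lowest knockout, of 41.4 CPM, and the fold change was 1.86 ± 0.31 (SE) on the log2 scale (adjusted p = 0.00373, edgeR quasi-likelihood test with Benjamini-Hochberg adjustment over all genes tested, as for each adjusted p that follows).

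Next in order of adjusted p came Acadl, the long-chain acyl-CoA dehydrogenase, at 123 to 237 CPM in the day 3 controls (median 210.5) and 142 to 431 CPM in the knockouts (median 345). Its log2 fold change of 0.85 ± 0.22 missed the threshold (adjusted p = 0.0606). It passed when knockout mouse 1 was left out (0.99, adjusted p = 0.00116), without the 3 stomach-rich libraries of day 3 (0.89, adjusted p = 0.00354) and without these and the 3 acinar-rich ones (0.80, adjusted p = 0.0271). DESeq2 also called it (adjusted p = 0.00575), as did edgeR with the filterByExpr filter (0.0448) and with all 26 libraries in a single fit (0.0064). Pex11a, which drives peroxisome division, also passed without knockout mouse 1 (0.65, adjusted p = 0.0172) and otherwise stood at 0.52 ± 0.20 (adjusted p = 0.231). Without the stomach-rich libraries Pex11a (0.61, adjusted p = 0.0394) and Angptl4 (0.74, adjusted p = 0.0478) passed as well. The falls of Ucp2 (-0.65 ± 0.21, adjusted p = 0.155) and Acsl1 (-0.41 ± 0.14, adjusted p = 0.168) did not pass. For Ucp2 the change of the effect by day 7, tested as an interaction, did not pass (-0.26 ± 0.275, adjusted p = 0.586). Several genes that had moved far by day 7 overlapped between the groups at day 3. Ppara was at 36.3 to 95.3 CPM in the day 3 controls (median 81.9) and 28.4 to 78.4 CPM in the knockouts (median 54.4), -0.28 ± 0.23 (adjusted p = 0.658). Cyp4a10 was at 2.05 to 7.07 CPM in the controls and spread from 0.25 to 5.90 CPM in the knockouts (-0.71 ± 0.53, adjusted p = 0.616). Hadh was at 177 to 783 CPM and 137 to 513 CPM (-0.34 ± 0.29, adjusted p = 0.664), and Acsl3 at 66.7 to 86.0 CPM and 62.0 to 94.4 CPM (0.24 ± 0.11, adjusted p = 0.349). The groups overlapped in all 37 genes at this time. No share over all genes stands beside this count, so nothing particular to these genes follows from it. The median log2 fold change of the 37 genes at day 3 was 0.05, beside -0.03 over all genes tested.

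Of the 37 genes at day 7, 7 were higher in the knockout (18.9%, against 19.7% of all 20259 genes tested), 16 were lower (43.2%, against 18.8%) and 14 did not pass the test. The share of higher genes was near that of all genes. The 6 control and 6 knockout libraries did not overlap for 6 of the higher genes (11.0% of all genes tested did so in this direction) and 15 of the lower ones (11.6%). The median log2 fold change was -0.16, beside -0.02 over all genes tested. The share of counts that the 37 genes took together overlapped between the groups, as given above.

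**Figure D1:**
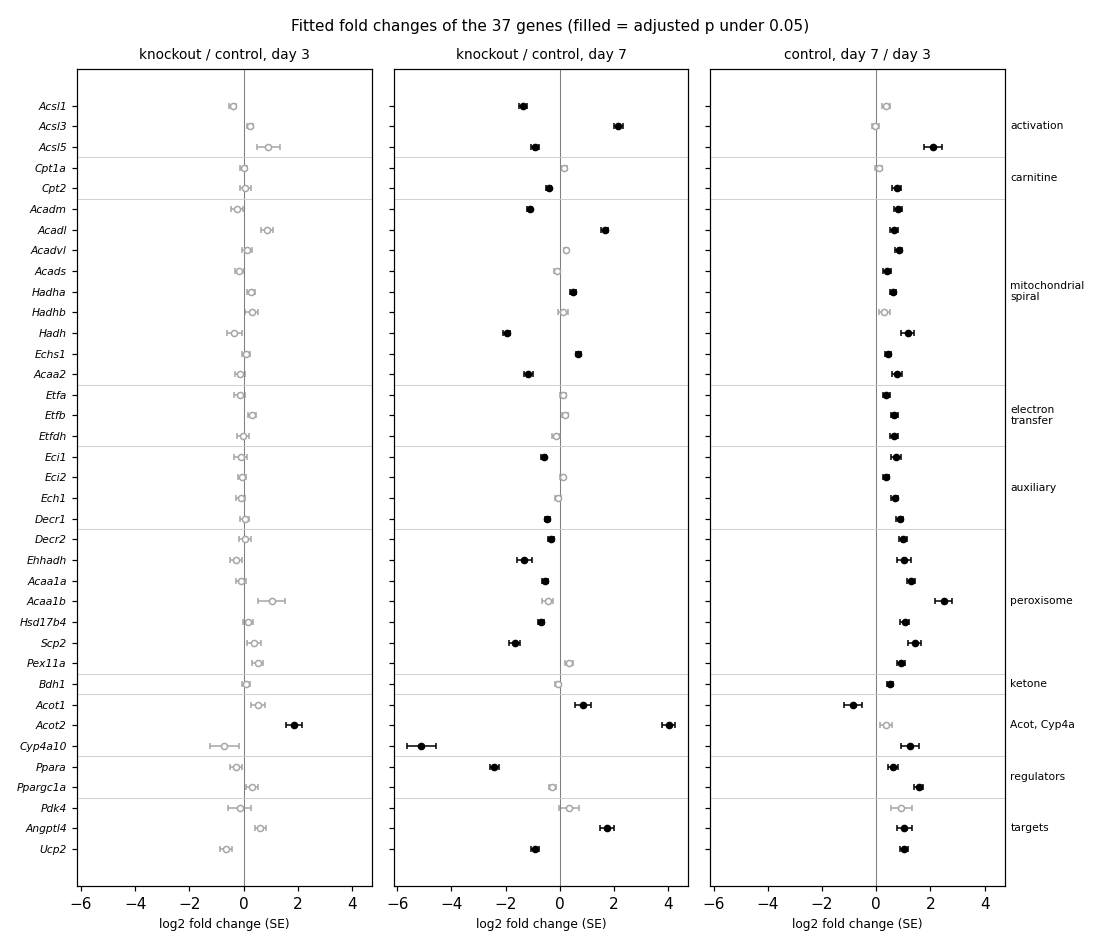
Fitted log2 fold changes (points) with their standard errors (bars) for the 37 genes, arranged by role, for knockout against control at day 3 and day 7 and for control day 7 against day 3. Filled points passed an adjusted p of 0.05, which 1 gene did at day 3 and 23 did at day 7, while 31 did between the control days.

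The sample itself also differed at day 7. Of 13 enterocyte markers 12 were lower in the knockout, with a median log2 fold change of -2.32, and their summed level was 3742 to 5483 CPM in the knockouts against 13180 to 25480 CPM in the controls, with no marker at 0 throughout. Of 6 stem and cycling crypt markers 5 were lower (172 to 265.7 CPM summed in the knockouts, 731.7 to 889.7 in the controls). Smooth muscle markers did not pass the test in 7 of 7 cases, 0 of them at an unadjusted p under 0.05 (696.2 to 1004 CPM in the knockouts, 607 to 1108 in the controls). Of the goblet markers 1 was higher and 2 lower of 6 tested, of the Paneth markers 0 and 1 of 6, of the leukocyte markers 1 and 2 of 6, of the adipocyte markers 2 and 2 of 5, of the hepatocyte markers 0 and 1 of 3, of the acinar markers 0 and 0 of 7 and of the stomach markers 0 and 3 of 4. In such whole tissue, fewer cells of a type and less RNA per cell cannot be told apart. The part of these marker changes in the results below was not tested.

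The mitochondrial spiral split by enzyme. Of its 9 genes 3 were higher in the knockout at day 7 (33.3%, against 19.7% of all genes tested), 3 were lower (33.3%, against 18.8%) and 3 did not pass. In each of the 6 that passed the control and knockout libraries did not overlap, as was so for 11.0% of all genes in the higher and 11.6% in the lower direction. The summed CPM of the 9 genes was 1655 to 2171 in the controls and 1542 to 1887 in the knockouts, and the ranges overlapped.

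Among the acyl-CoA dehydrogenases, which catalyse the first step and are graded by chain length, the outcome differed from one enzyme to the next. Acadl, for long chains (chr1:66830839-66863277, minus strand), was at 198 to 285 CPM in the day 7 controls (median 245) and at 657 to 919.5 CPM in the knockouts (median 756). Every knockout lay far above the highest control, and the log2 fold change was 1.65 ± 0.12 (adjusted p = 4.71e-09). Acadm, for medium chains (chr3:153922357-153944632, minus strand), went the other way, from 75.6 to 97.0 CPM in the controls (median 89.4) to 35.6 to 45.4 CPM in the knockouts (median 40.0), a log2 fold change of -1.12 ± 0.10 (adjusted p = 6.32e-08). Acadvl, for very long chains, was at 37.2 to 43.7 CPM in the controls and 42.5 to 50.7 CPM in the knockouts. Its difference of 0.22 ± 0.09 missed the threshold (adjusted p = 0.0535) and passed without knockout mouse 5 (0.24, adjusted p = 0.0478) and with the filterByExpr filter (adjusted p = 0.0452), and 410 of its last 500 exonic bases overlap the opposite-strand gene Dvl2. Acads, for short chains, was at 27.2 to 34.7 CPM in the controls and 23.2 to 34.5 CPM in the knockouts (-0.11 ± 0.11, adjusted p = 0.492).

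For the later steps, the hydratase and the alpha subunit of the long-chain trifunctional protein rose while the second dehydrogenase and the last thiolase fell. Echs1, the short-chain enoyl-CoA hydratase, was at 65.4 to 105.5 CPM in the controls (median 86.8) and 130.3 to 144 CPM in the knockouts (median 138), 0.68 ± 0.10 on the log2 scale (adjusted p = 1.74e-05). Hadha, the subunit of the trifunctional protein that hydrates and dehydrogenates long chains, was at 164 to 239 CPM in the controls (median 212) and 267 to 307 CPM in the knockouts (median 286), a log2 fold change of 0.48 ± 0.10 (adjusted p = 0.000663), and it overlaps Garem2 on the other strand in 75 of its last 500 exonic bases. Its thiolase subunit Hadhb was seen at few counts (5.58 to 10.6 CPM in the knockouts, 6.09 to 8.09 in the controls), and at 0.12 ± 0.17 it did not pass (adjusted p = 0.652).

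Hadh, the dehydrogenase for medium and short 3-hydroxyacyl chains (chr3:131233419-131272101, minus strand), fell most of the spiral. It was at 715.5 to 1030 CPM in the controls (median 801) and at 189 to 257 CPM in the knockouts (median 206), a log2 fold change of -1.97 ± 0.13 (adjusted p = 1.55e-09). Acaa2, the mitochondrial thiolase, was at 184 to 423 CPM in the controls (median 349.5) and at 106 to 158 CPM in the knockouts (median 146), -1.17 ± 0.16 (adjusted p = 1.05e-05). The difference of Acaa2 kept its call when each mouse was left out in turn.

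**Figure D2:**
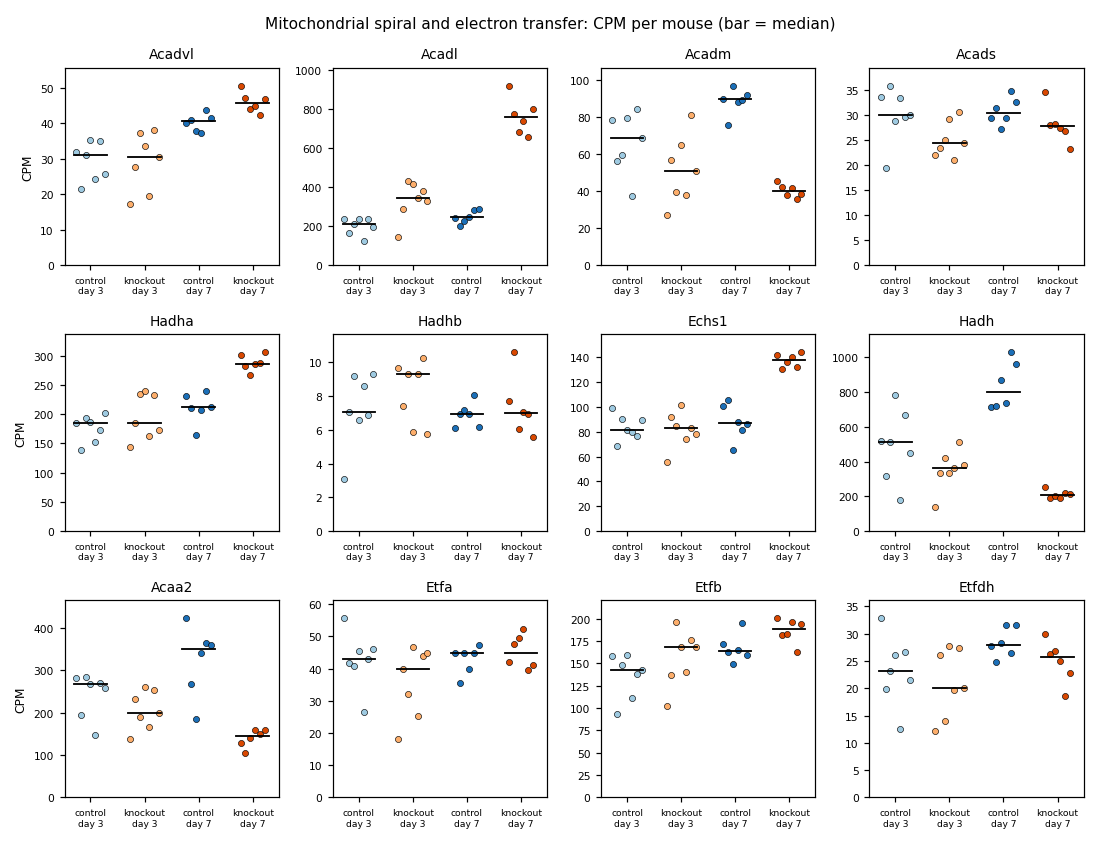
CPM of the 9 genes of the mitochondrial spiral and the 3 genes of electron transfer in each mouse (points), with the median of each group (bar), on linear axes from 0. At day 7 the knockouts lie above all controls for Acadl, Hadha and Echs1 and below all controls for Acadm, Hadh and Acaa2, and the groups overlap for the 3 electron transfer genes.

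The electron transfer genes, which take up electrons from the mitochondrial acyl-CoA dehydrogenases, did not pass in 3 of 3 cases at day 7. Of all genes tested 19.7% were higher and 18.8% lower, so with 3 genes nothing particular to them follows from this. Etfa and Etfb, the subunits of the flavoprotein, were at 35.4 to 47.2 and 149 to 195 CPM in the controls and at 39.5 to 52.4 and 162 to 201 CPM in the knockouts, with log2 fold changes of 0.10 ± 0.11 and 0.18 ± 0.10. Etfdh, the oxidoreductase that hands the electrons to ubiquinone, was at 24.8 to 31.6 CPM in the controls and 18.6 to 29.96 CPM in the knockouts (-0.16 ± 0.12). None of the 3 reached an unadjusted p of 0.05, and DESeq2 called 0 of them. Etfb overlaps other annotated genes in 61 of its last 500 exonic bases.

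Of the carnitine shuttle, Cpt1a, the outer-membrane transferase that controls entry, was at 65.7 to 111 CPM in the controls and 89.5 to 112.5 CPM in the knockouts (0.16 ± 0.11, adjusted p = 0.270). Cpt2, which returns the acyl group to CoA inside, fell from 60.7 to 86.5 CPM (median 67.6) to 44.4 to 57.1 CPM (median 52.4), a log2 fold change of -0.41 ± 0.10 (adjusted p = 0.00182). With all 26 libraries in a single fit this call was lost (-0.41, adjusted p = 0.0995). Of the 4 auxiliary enzymes, which prepare unsaturated chains for the spiral, 2 were lower (50%, against 18.8% of all genes tested). The groups did not overlap in either of them (50%, against 11.6%). The isomerase Eci1 was at 45.4 to 63.4 CPM in the controls and 31.7 to 35.7 CPM in the knockouts (-0.60 ± 0.10, adjusted p = 0.000128). The dienoyl-CoA reductase Decr1 was at 89.7 to 105.6 CPM and 62.1 to 74.7 CPM (-0.47 ± 0.09, adjusted p = 0.000246). The isomerases Eci2 (0.10 ± 0.10) and Ech1 (-0.05 ± 0.11) did not pass.

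Fatty acid activation also split. The acyl-CoA synthetase Acsl3, which resides on the endoplasmic reticulum and lipid droplets (chr1:78657825-78707743, plus strand), was at 46.4 to 74.1 CPM in the day 7 controls (median 51.7) and at 194 to 348 CPM in the knockouts (median 244), a log2 fold change of 2.16 ± 0.17 (adjusted p = 8.34e-09). Acsl1 was at 52.3 to 87.8 CPM in the controls (median 79.2) and at 23.3 to 32.5 CPM in the knockouts (median 27.3), -1.36 ± 0.14 (adjusted p = 2.57e-07). Acsl5, the synthetase most typical of the intestinal epithelium, was at 600.5 to 997 CPM in the controls (median 789) and at 373 to 471.5 CPM in the knockouts (median 400.1), a difference of -0.92 ± 0.15 (adjusted p = 5.33e-05). Groups did not overlap for these 3 synthetases, 1 higher (33.3%, against 11.0% of all genes tested) and 2 lower (66.7%, against 11.6%). In the fit of all 26 libraries together the call of Acsl5 was lost (-0.91, adjusted p = 0.0611).

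Peroxisomal genes outside this set, given further below, moved both ways, while the 7 within it moved in 1 direction where they passed. Of 7, 5 were lower in the knockout at day 7 (71.4%, against 18.8% of all genes tested), 0 were higher and 2 did not pass, with a median log2 fold change of -0.55. The groups did not overlap in 4 of the lower ones (57.1%, against 11.6%). By edgeR 1 was higher at an unadjusted p under 0.05, and DESeq2 called 0 higher and 5 lower. Scp2, which holds the thiolase for branched chains and a sterol carrier domain (promoter above), was at 14.3 to 35.3 CPM in the controls (median 27.2) and at 7.02 to 9.55 CPM in the knockouts (median 7.85), a log2 fold change of -1.67 ± 0.20 (adjusted p = 1.67e-06). Ehhadh, the bifunctional hydratase and dehydrogenase, was at 3.47 to 8.90 CPM in the controls (median 7.12) and 1.74 to 3.79 CPM in the knockouts (median 2.24). The ranges overlapped, and the log2 fold change was -1.31 ± 0.28 (adjusted p = 0.00107). The second bifunctional enzyme, Hsd17b4, was at 127 to 199.7 CPM in the controls and 85.6 to 103 CPM in the knockouts, and fell by 0.69 on the log2 scale (SE 0.11, adjusted p = 7.97e-05). The thiolase Acaa1a, at 91.6 to 119 and 56.1 to 76.5 CPM, fell by 0.55 (SE 0.11, adjusted p = 0.000368). The reductase Decr2, at 57.3 to 80.9 and 46.6 to 53.5 CPM, fell by 0.32 (SE 0.10, adjusted p = 0.0159). These 3 and Scp2 are the genes without overlap. The call of Decr2 was lost with all 26 libraries in a single fit (-0.31, adjusted p = 0.206).

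The other thiolase, Acaa1b, was at 8.27 to 14.9 CPM in the controls and 4.98 to 10.3 CPM in the knockouts, -0.46 ± 0.19 (adjusted p = 0.0695), and passed when any of knockout mouse 1, control mouse 1 or control mouse 4 was left out (adjusted p = 0.0301, 0.0451 and 0.0275). It also passed with the replicate number as a block (-0.46, adjusted p = 0.0432) and with acinar and stomach scores as covariates (-0.52, adjusted p = 0.0403). Acaa1a shares 47.2% of the 35-base words of its last 500 transcript bases with Acaa1b, and 224 of the last 500 exonic bases of Acaa1b overlap Dlec1 on the other strand, so the split of reads between these thiolases is uncertain. Pex11a, at 96.5 to 168 CPM in the controls and 134 to 184 CPM in the knockouts, was the peroxisomal gene with the highest difference, 0.34 ± 0.14 (adjusted p = 0.0563). It passed without knockout mouse 4 (adjusted p = 0.0374), without control mouse 3 (0.0264) or 6 (0.0185) and with the filterByExpr filter (0.0472).

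The paired thioesterases Acot1 and Acot2 lie next to each other on chromosome 12 (Acot2 at chr12:83987861-83993873 and Acot1 at chr12:84009490-84018371, both plus strand), share none of the 466 words of 35 bases in their last 500 transcript bases, and act in mitochondria (Acot2) and in the cytosol (Acot1). Acot2 showed the largest rise of the 37 genes. It was at 23.0 to 69.6 CPM in the day 7 controls (median 40.8) and at 550.0 to 879.9 CPM in the knockouts (median 672), a log2 fold change of 4.01 ± 0.23 (adjusted p = 1.57e-10), and the lowest knockout stood far above the highest control. Acot1 was at 6.67 to 40.4 CPM in the controls (median 24.9) and 32.6 to 52.5 CPM in the knockouts (median 39.6), with overlap. Its log2 fold change of 0.85 ± 0.29 passed narrowly (adjusted p = 0.0256), and the call was lost without knockout mouse 1 (adjusted p = 0.0581) or 4 (0.0528), without control mouse 2 (0.0501), which is the stomach-rich library of day 7, or 5 (0.0575) and in DESeq2 (0.0585). Without that library and the acinar-rich one of day 7 it was 0.62 (adjusted p = 0.0929).

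Ppara, which encodes PPAR alpha (chr15:85734983-85802819, plus strand), was at 67.8 to 121 CPM in the day 7 controls (median 84.4) and at 10.8 to 21.6 CPM in the knockouts (median 16.5). Every knockout was below every control, and the log2 fold change was -2.42 ± 0.18 (adjusted p = 3.41e-09). Its coactivator Ppargc1a was at 107 to 168 CPM in the controls and 90.4 to 148 CPM in the knockouts (-0.28 ± 0.14, adjusted p = 0.132). It passed with acinar and stomach scores as covariates (-0.48, adjusted p = 0.000972), without the stomach-rich control mouse 2 (-0.37, adjusted p = 0.0271), without that library and the acinar-rich one (-0.30, adjusted p = 0.0484) and without knockout mouse 1 (-0.37, adjusted p = 0.0450).

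Classical targets of the receptor parted ways. Cyp4a10, the omega-hydroxylase that serves as a textbook readout of PPAR alpha in liver (chr4:115518264-115533649, plus strand), was counted 20 to 106 times in each day 7 control library (median 37.5) and 0 to 4 times in each knockout library (median 0.5). Its fitted log2 fold change was -5.11 ± 0.53 (adjusted p = 3.48e-07), whose size depends on how near-zero counts are treated. Its share of zero counts took it out of the test when knockout mouse 3, 4 or 5 was left out and when the stomach-rich and acinar-rich libraries were, so that it has no value there, also in the change of the effect and between the knockout days. Cyp4a10 shares 10.5% of the words at its 3′ end with Cyp4a31. Angptl4, the secreted inhibitor of lipoprotein lipase, went up, from 7.96 to 35.03 CPM in the controls (median 23.0) to 49.8 to 98.8 CPM in the knockouts (median 74.1), 1.72 ± 0.26 on the log2 scale (adjusted p = 2.63e-05). Pdk4, the kinase that shuts off pyruvate dehydrogenase, ranged from 5.30 to 18.3 CPM in the controls and from 6.12 to 28.7 CPM in the knockouts, and at 0.33 ± 0.37 it did not pass (adjusted p = 0.537). Ucp2, an inner-membrane carrier, was at 205.5 to 324 CPM in the controls (median 288) and 90.2 to 174 CPM in the knockouts (median 144), -0.93 ± 0.14 (adjusted p = 4.4e-05), and overlaps Dnajb13 in 305 of its last 500 exonic bases.

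**Figure D3:**
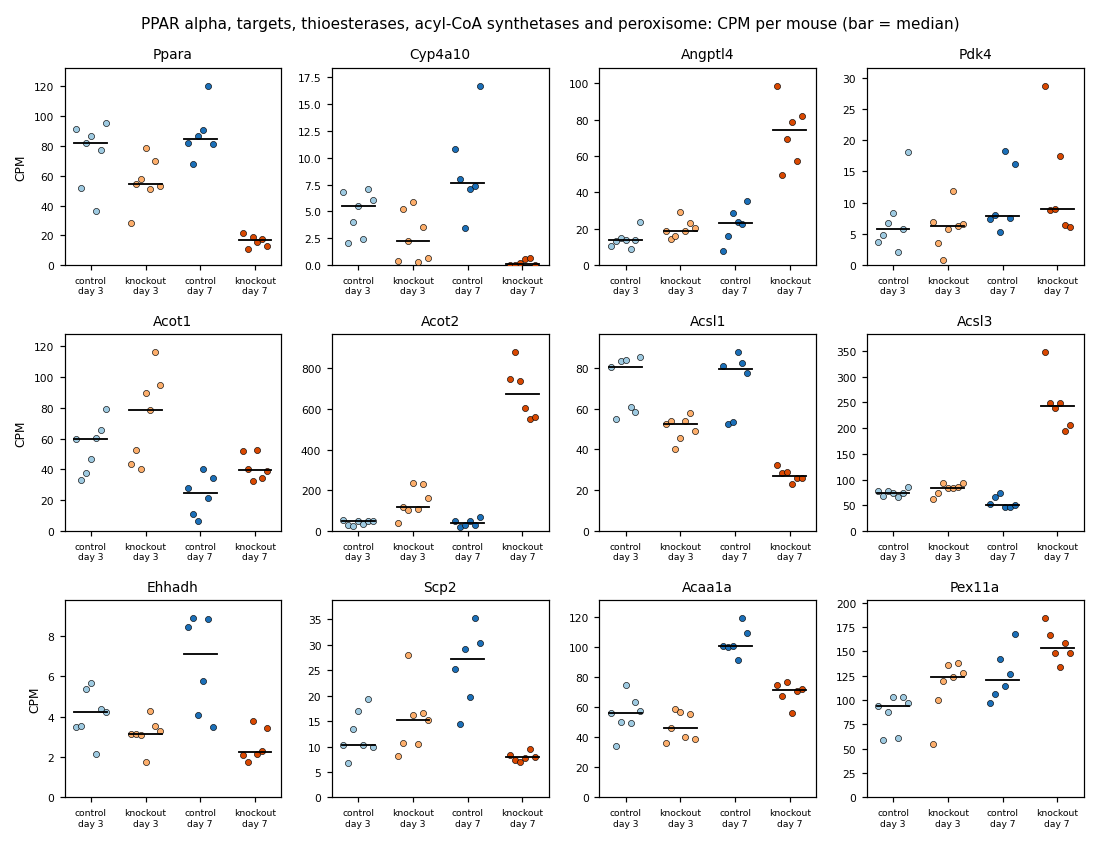
CPM in each mouse (points) and group medians (bars) for PPAR alpha, its targets, the thioesterases, the synthetases Acsl1 and Acsl3 and 4 peroxisomal genes, on linear axes from 0. At day 7 the knockouts of Ppara and Cyp4a10 sit near the axis, those of Acot2, Acsl3 and Angptl4 lie above all controls, and those of Pdk4 overlap with the controls.

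Bdh1, the mitochondrial dehydrogenase that interconverts the ketone bodies acetoacetate and beta-hydroxybutyrate, was at 111 to 133 CPM in the day 7 controls and at 101.5 to 126 CPM in the knockouts. Its difference of -0.09 ± 0.09 did not pass (adjusted p = 0.482), and neither did that at day 3 (0.09 ± 0.15, adjusted p = 0.867).

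The change of the genotype effect between the days was tested on all 26 libraries as an interaction. Of the 37 genes 9 had a more negative effect at day 7 than at day 3 (24.3%, against 9.74% of all 19604 genes tested), 5 had a more positive one (13.5%, against 8.64%) and 23 did not pass. The more negative ones were those of Cyp4a10 (-4.38 ± 0.89 on the log2 scale, adjusted p = 0.000667), Ppara (-2.13 ± 0.31, adjusted p = 1.18e-05), Scp2 (-2.03), Acsl5 (-1.80), Hadh (-1.61), Acaa2 (-1.03), Acsl1 (-0.93), Acadm (-0.85) and Hsd17b4 (-0.83). Cyp4a10 had 3 counts or fewer in 3 knockout libraries of day 3 and in 5 of day 7, so the size of its value is uncertain. The genes with a more positive effect were Acot2 (2.17 ± 0.41, adjusted p = 0.000268), Acsl3 (1.94 ± 0.20, adjusted p = 5.91e-08), Angptl4 (1.13), Acadl (0.82) and Echs1 (0.62). Angptl4 lost this call without the stomach-rich libraries (0.91, adjusted p = 0.0791), without these and the acinar-rich ones (0.77, adjusted p = 0.274), without control mouse 7 of day 3 (0.96, adjusted p = 0.0534) and without knockout mouse 1 of day 7 (0.99, adjusted p = 0.0568). Acadm lost it without the stomach-rich and acinar-rich libraries (-0.72, adjusted p = 0.0530), and Acadl lost it without any of 8 mice (knockout mouse 2 of day 3, knockout mice 1, 2 and 6 and control mice 1, 2, 3 and 4 of day 7), with adjusted p up to 0.0703. Without the stomach-rich libraries Acaa1b (-1.39, adjusted p = 0.0167), Decr1 (-0.61, adjusted p = 0.00748) and Ppargc1a (-0.72, adjusted p = 0.0309) also passed, and without the acinar-rich ones as well Decr1 did (-0.51, adjusted p = 0.0167). Enterocyte markers had a more negative effect in 12 of 13 cases in the same test, with a median of -3.00. Their part in these changes was not tested.

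Within the controls alone the pathway differed between the days. Of the 37 genes 30 were higher at day 7 than at day 3 (81.1%, against 19.7% of all 20646 genes tested), 1 was lower (2.70%, against 16.3%) and 6 did not pass, with a median log2 fold change of 0.76 beside -0.06 over all genes. These calls are on TMM-scaled counts, and some genes called higher were nearly level in mean CPM at day 3 and day 7. They include Etfa (42.77 and 42.82), Eci2 (29.30 and 29.35), Acads (30.04 and 30.75) and Echs1 (83.55 and 87.75). Their calls depend on the scaling. Others, such as Acsl5 and Ppargc1a below, also rose in CPM. The libraries of the days did not overlap for 8 of the higher genes (3.94% of all genes tested did so in this direction). All 7 genes listed as peroxisomal were higher, from 0.92 ± 0.16 for Pex11a to 2.48 ± 0.33 for Acaa1b. The value of Acaa1b rests on 0.5 to 22 counts in each day 3 control library, and its reads may be shared with Acaa1a, as said above. Also higher were 16 of the 18 genes listed under the carnitine shuttle, mitochondrial spiral, electron transfer and auxiliary steps, Cpt1a (0.09 ± 0.12) and Hadhb (0.30 ± 0.22) being the exceptions. Some of these rises depended on single libraries. Without the stomach-rich and acinar-rich ones 25 of the 37 genes were higher and 0 lower, and the calls of Ehhadh (0.77, adjusted p = 0.109), Eci1 (0.37, adjusted p = 0.0642), Echs1 (0.32, adjusted p = 0.105), Eci2 (0.26, adjusted p = 0.139), Etfa (0.23, adjusted p = 0.173) and Cyp4a10 (0.85, adjusted p = 0.117) were lost, while Pdk4 passed (adjusted p = 0.0361). Without the stomach-rich ones alone Pdk4 (1.24, adjusted p = 0.00641) and Acsl1 (0.44, adjusted p = 0.0299) passed. Etfa, at 0.37 ± 0.13 with all controls, also lost its call without any of 9 mice (2 to 6 of day 3, and 1, 3, 5 and 6 of day 7), with adjusted p up to 0.111, and in DESeq2 (0.0535), with its size factors (0.0623), with filterByExpr (0.0895), with no filter (0.0529), in the fit of all 26 libraries (0.140) and with the block (0.0664). Acads, at 0.39 ± 0.14, lost it without any of 5 mice (4, 6 and 7 of day 3, and 5 and 6 of day 7), with adjusted p up to 0.0883, with the DESeq2 size factors (0.0505), with filterByExpr (0.0658) and with the block (0.0530). Eci2 lost it in the fit of all 26 libraries (adjusted p = 0.0531). Acsl5 showed the steepest rise of the mitochondrial and activation genes, from 67.1 to 447 CPM (median 264) at day 3 to 600.5 to 997 CPM (median 789) at day 7, a log2 fold change of 2.095 ± 0.323 (adjusted p = 0.00013). Ppargc1a rose without overlap from 39.5 to 90.3 CPM to 107 to 168 CPM, 1.57 ± 0.17 (adjusted p = 2e-05), and Ucp2 from 115 to 198 CPM to 205.5 to 324 CPM, 1.02 ± 0.14 (adjusted p = 6.05e-05). Acot1 was the gene that fell (-0.86 ± 0.32, adjusted p = 0.0445), a call lost without any of 7 mice (1, 6 and 7 of day 3, and 1, 2, 3 and 5 of day 7), with adjusted p up to 0.0920, and without the stomach-rich libraries (-0.54, adjusted p = 0.195).

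In these same controls all 13 enterocyte markers were higher at day 7, with a median log2 fold change of 2.17 and a summed level of 13180 to 25480 CPM against 951.2 to 11120 CPM at day 3, and all 7 smooth muscle markers were lower (607 to 1108 CPM against 1720 to 3092 CPM). The labels give no batch or collection date, so the days cannot be told apart from a difference in collection, and the part of the markers in the rise of the 30 genes was not tested. At day 3 the enterocyte markers did not pass between the genotypes in 13 of 13 cases (744.5 to 12810 CPM in the knockouts).

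**Figure D4:**
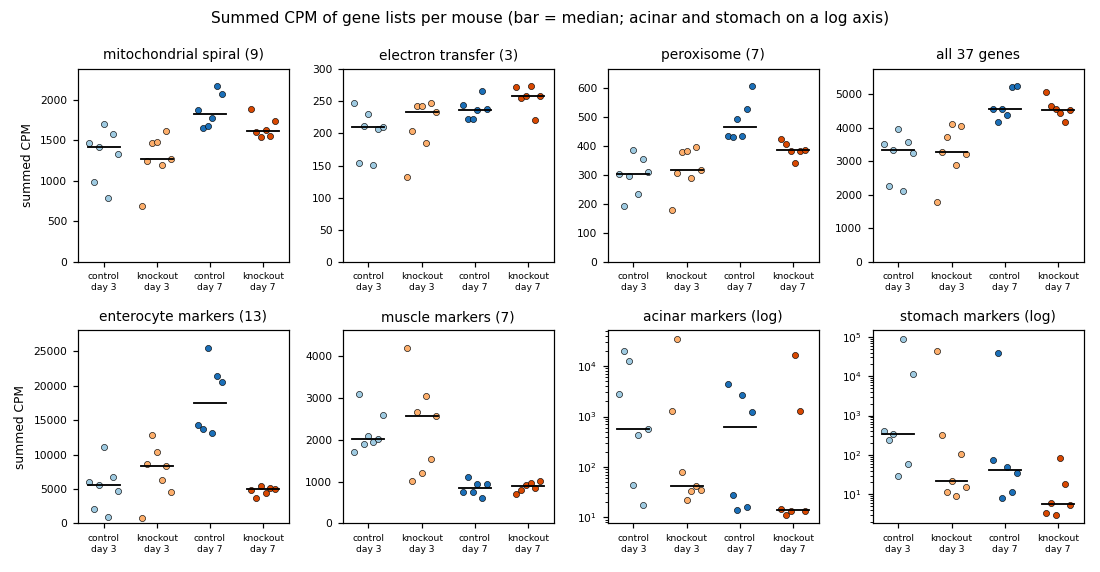
Summed CPM per mouse (points) and group medians (bars) of the mitochondrial spiral, electron transfer and peroxisomal genes, of all 37 genes and of 4 marker lists. The acinar and stomach panels have a logarithmic axis. The sum over the 37 genes overlaps between the day 7 groups, although 7 of the genes were higher and 16 lower in the knockout. The enterocyte sums of the day 7 knockouts (3742 to 5483 CPM) lie below all day 7 controls (13180 to 25480 CPM).

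Between day 3 and day 7 the knockouts rose in 18 of the 37 genes (48.6%, against 16.7% of all 20329 genes tested) and fell in 5 (13.5%, against 20.2%). The number of rises was 11 with the replicate number as a block, 10 with acinar and stomach scores as covariates and 14 without the stomach-rich and acinar-rich libraries, and those of Acads, Pdk4, Ucp2 and Eci2 were lost in each of these fits. Over the same days all 7 smooth muscle markers fell in the knockouts (1016 to 4199 CPM summed at day 3, 696.2 to 1004 at day 7), as did all 6 stem and cycling markers (1065 to 1436 CPM, then 172 to 265.7), and 4 of 6 goblet markers rose (1238 to 5596 CPM, then 4819 to 6254). Of the enterocyte markers 4 of 13 fell and 0 rose (744.5 to 12810 CPM, then 3742 to 5483). Their part in these changes was not tested. The falls were those of Cyp4a10 (-3.25 ± 0.86), Ppara (-1.61 ± 0.23, adjusted p = 4.32e-05), Scp2 (-0.72 ± 0.23), Acsl1 (-0.69 ± 0.13, adjusted p = 0.000564) and Acot1 (-0.62 ± 0.23). The size for Cyp4a10 depends on how its near-zero counts are treated, here as well. The fall of Scp2 lost its call without any of 5 knockouts (mouse 4 of day 3, and mice 2, 3, 4 and 6 of day 7), with adjusted p up to 0.0680, and that of Acot1 without any of 11 (mice 2, 4, 5, 6 and 7 of day 3 and mice 1 to 6 of day 7), with adjusted p up to 0.124. With the block neither was called (adjusted p = 0.0882 for Scp2 and 0.133 for Acot1). Without the stomach-rich libraries Hadh (-0.71, adjusted p = 0.000348) and Acaa2 (-0.46, adjusted p = 0.0214) fell as well, and Acads was no longer called (adjusted p = 0.0809). Without the acinar-rich ones too Hadh was still called (-0.62, adjusted p = 0.00245). In the controls Ppara, Scp2 and Cyp4a10 had risen over the same days (0.62 ± 0.19, 1.42 ± 0.24 and 1.24 ± 0.33), the rise of Ppara missing the threshold without control mouse 5 of day 7 (adjusted p = 0.0554) and that of Cyp4a10 without the stomach-rich and acinar-rich libraries (adjusted p = 0.117). Among the rises were Acot2 (2.43 ± 0.31, adjusted p = 1.71e-05), Angptl4 (2.05 ± 0.19, adjusted p = 5.57e-07), Acsl3 (1.78 ± 0.16, adjusted p = 3e-07) and Acadl (1.38 ± 0.21, adjusted p = 0.00011). These comparisons share libraries with those of the genotypes.

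A further 107 genes of the same pathways, listed by function, were read alongside. At day 7 97 of them could be tested, and 21 were higher (21.6%, against 19.7% of all genes tested) and 35 lower (36.1%, against 18.8%) in the knockout, with a median log2 fold change of -0.20. The share of higher genes was near that of all genes. The same shares of all genes stand beside the counts of the lists that follow. Of 22 other peroxisomal enzymes and transporters 10 were lower (45.5%) and 3 higher (13.6%). Slc27a2, the very long-chain acyl-CoA synthetase, fell from 45.2 to 72.0 CPM in the controls to 0.79 to 3.08 CPM in the knockouts (-4.83, adjusted p = 3.79e-12), and Acox2, the oxidase for branched chains and bile acid side chains, rose from 8.46 to 38.8 CPM to 220.1 to 320.5 CPM (3.66, adjusted p = 4.55e-08). Of 15 peroxisome assembly factors 2 were higher (13.3%), with Pex14 at the top (0.50, adjusted p = 0.00168), and 3 were lower (20%).

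Of 21 other mitochondrial genes 6 were higher (28.6%) and 8 lower (38.1%). Acot9, a mitochondrial thioesterase, led the rises at 1.13 (adjusted p = 1.04e-05), from 6.54 to 13.7 CPM in the controls to 19.5 to 27.5 CPM in the knockouts, and Acad11, an acyl-CoA dehydrogenase of the same family as Acadm, led the falls at -1.77 (adjusted p = 2.99e-10), from 46.8 to 74.4 CPM to 15.3 to 19.3 CPM. Of 7 ketone body genes 2 were higher and 2 lower (28.6% each). The acetoacetyl-CoA thiolase Acat1 was at 123 to 182 CPM in the controls and 55.0 to 72.1 CPM in the knockouts (-1.13, adjusted p = 1.53e-07).

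Among 13 nuclear receptors and coregulators 1 was higher (7.69%) and 7 lower (53.8%). The member that rose was Pparg, the receptor best known from adipocytes, from 7.13 to 19.1 CPM to 22.9 to 38.5 CPM (1.11, adjusted p = 0.000206), and the steepest fall was that of Ppard, from 64.7 to 103 CPM to 23.3 to 33.0 CPM (-1.50, adjusted p = 7.74e-09), so that Pparg rose where Ppara and Ppard fell. Of 20 other known PPAR alpha targets that could be tested 7 were higher (35%) and 6 lower (30%). The acyl-CoA synthetase Acsl4 rose from 8.67 to 18.0 CPM to 74.7 to 112.5 CPM (2.98, adjusted p = 5.43e-11), and the hydroxylase Cyp4f14 fell from 352 to 674 CPM to 69.7 to 134 CPM (-2.24, adjusted p = 4.6e-08). At day 3, 1 of the 99 of these genes tested was higher (1.01%, against 1.11% of all genes) and 1 lower (1.01%, against 0.323%). In the controls 60 of 99 were higher at day 7 than at day 3 (60.6%, against 19.7%) and 9 lower (9.09%, against 16.3%).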

How the data were processed

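The genes and lists described here were chosen with earlier results of these data known. Per the study's methods, adapters were clipped with Cutadapt 2.10 and reads were aligned with subread-align to GRCm38. Then featureCounts 2.0.1 counted primary alignments above a limit on mapping quality, with multi-mapping reads allowed. It assigned them to the exons of each gene, with fractions for overlapping genes. No strand setting is stated, so overlapping genes cannot be told apart. The deposited expected counts are these fractional counts (95.0% whole), and the deposited CPM are the same counts per 1000000 of the library total, as a comparison of the tables showed (largest difference 0). Counts were rounded and tested with edgeR 4.0.16 (TMM scaling, quasi-likelihood fit, Benjamini-Hochberg adjustment over all genes tested, adjusted p under 0.05), in a fit per day, a fit of all 26 libraries for the change between days and a fit per genotype. The plan had named counts, and rounding was needed because they are estimated. Genes with 0 counts in more than a 0.5 share of the libraries of any compared group were left out, and all 37 genes passed in each fit. Each library is a separate mouse. Precision is limited by 3720168 to 6338016 counts per library.

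All 37 genes are named. Of each further pathway list the called gene with the largest rise and the largest fall at day 7, with a mean of at least 20 counts, is named. Alternatives were DESeq2 1.42.0, its size factors, other filters, a joint fit, the replicate number as a block, acinar and stomach scores as covariates, and each mouse left out, and, added after seeing the data, fits without the libraries rich in stomach or acinar markers. The fits were also run on simulated counts, which did not model the differences in stomach and acinar markers between libraries. The outcome is not given here and lends no support. The 92 spike-in entries hold 0 counts and were not used. A comparison of protein sequences was not made. The targeted gene and 2 of the pathway genes picked by the naming rule are not reported here.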

Additional observations from a re-analysis of the deposited data

Results flagged for a closer look

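Within single groups 10 of 148 combinations of gene and group held a mouse far from the rest by Dixon's ratio, where chance gives about 1 in 20 (7.4). The high values were those of Acsl3 in knockout mouse 1 of day 7 (348.4 CPM, next 249.4), Cpt2 in control mouse 6 of day 7 (86.46, next 69.91), Scp2 in knockout mouse 3 of day 3 (27.95, next 16.62), and Pdk4 (18.05, next 8.338) and Angptl4 (23.89, next 14.94) in control mouse 7 of day 3, a library rich in stomach markers. The low values were those of Acads (19.34, next 28.74) and Ucp2 (114.9, next 166.1) in control mouse 2 of day 3, a library rich in acinar markers, Bdh1 in control mouse 5 of day 3 (69.35, next 108) and Decr1 in knockout mouse 1 of day 3 (39.1, next 63.24), both rich in stomach markers, and Eci2 in control mouse 3 of day 7 (23.52, next 29.21).

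The effect of the genotype differed between day 3 and day 7, by the edgeR interaction test, in 14 of the 37 genes. The difference of log2 fold changes, day 7 minus day 3, was -4.38 for Cyp4a10 (with near-zero counts in knockouts, as said above), -2.13 for Ppara, -2.03 for Scp2, -1.80 for Acsl5, -1.61 for Hadh, -1.03 for Acaa2, -0.93 for Acsl1, -0.85 for Acadm and -0.83 for Hsd17b4. It was 2.17 for Acot2, 1.94 for Acsl3, 1.13 for Angptl4, 0.82 for Acadl and 0.62 for Echs1. For Acsl5 the fitted effect was 0.90 ± 0.42 at day 3, which did not pass, and -0.92 ± 0.15 at day 7.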

How the results depend on the processing

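None of the called values changed direction under any alternative that was run. The counts at day 7 stayed within 1.5 times of 7 higher and 16 lower genes under each (6 to 9 higher, 13 to 18 lower). At day 3 the count of higher genes was 2 with DESeq2, with the filterByExpr filter and with all 26 libraries in 1 fit, 4 without the stomach-rich libraries and 2 without the stomach-rich and acinar-rich ones, and 1 to 3 when each mouse was left out. All genes called at day 3 numbered 297, but 786 with DESeq2, 810 in the joint fit, 486 without the stomach-rich libraries and 171 to 779 with each mouse left out. Leaving out each mouse gave 3 to 5 genes with a more positive effect at day 7 than at day 3 (3 without knockout mouse 1 of day 7) and 0 to 1 lower in the controls between days, where both fits without stomach-rich libraries gave 0. In the knockouts between days 10 genes were higher with the acinar and stomach scores as covariates, against 18, and 2 to 7 were lower with each mouse left out, against 5. Among peroxisomal genes at day 7, 1 was higher with filterByExpr (Pex11a, 0.33, adjusted p = 0.0472) and 0 to 1 with each mouse left out. The change of the genotype effect lost its call without stomach-rich and acinar-rich libraries for Acadm (-0.72, adjusted p = 0.0530) and Angptl4 (0.77, adjusted p = 0.274), and Cyp4a10 could not be tested there. The cause was not tested. The filter on zero counts took Cyp4a10 out of that fit in 3 comparisons (the genotypes at day 7, the change of the effect and the knockout days), and out of the fits without knockout mouse 3, 4 or 5 of day 7 in the same 3, and filterByExpr removed it between the knockout days, so that the counts of lower genes there do not include it. With no filter it was called at day 7.

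The labels do not say whether replicate numbers pair the mice. Deviations of same-numbered mice correlated between -0.357 and 0.430 at day 3 and between -0.241 and 0.417 at day 7. Differently numbered mice were not compared, so these values cannot decide whether the numbers pair the mice. With the number as a block, 7 genes were higher and 17 lower at day 7, 1 and 0 at day 3, 5 and 9 for the change of the effect, 29 and 1 between days in the controls, and 11 and 3 in the knockouts, where 18 and 5 had been called. All genes called at day 3 numbered 99 with the block.

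No gene was at or under 3 counts in every library of a group, so no fold change was set to a bound.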
